A study of Drosophila melanogaster with 5 samples.

Results

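The Turandot family was followed as 7 genes, TotA (CG31509), TotB (CG5609), TotC (CG31508), TotF (CG31691), TotM (CG14027), TotX (CG31193) and TotZ (CG31507), out of 13265 genes listed in the series. The genes belong together by name and family, but the family was selected on its counts in these libraries: TotA and TotM had been seen to be high in Rev against IR6. All levels and ratios below are therefore descriptions without a test. TotB was taken as CG5609, its locus tag in RefSeq; the identifier CG31609, which had been given for TotB, belongs in RefSeq to a different gene on 2L and was not counted as a member. Its counts were 114 in the iso1a whole body, 10 in Rev and 11 in IR6, and 0 in both ovary libraries. Of the 7 genes, 6 held counts in at least 1 library, and TotF held none in any.

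Polyadenylated RNA of Drosophila melanogaster was sequenced in 5 libraries, and each formed a group of its own. Ovaries of the line iso1a gave 2 strand-specific libraries of 5′ ends (CAGE), which captures capped RNA. The pyrosequenced one carries a yes for normalization in its labels and the Solexa one a no. Whole bodies gave 3 random-primed, unstranded Illumina libraries from the lines iso1a (normalization yes), Rev and IR6 (both no); what the label means is not stated. Each whole-body library came from 10 adult females aged 0 to 3 days and 10 males younger than 24 h, and the ovary RNA from 20 ovaries. The labels name no treatment, infection or allele for any line. With 1 library per group no difference had a replicate check, and every interval below is an exact 95% interval that covers counting error alone. Intervals are of the Clopper-Pearson kind, except for fold differences relative to that of TotA, which are conditional odds ratios.

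Turandot proteins are small peptides secreted into the haemolymph of flies. They are made largely by the fat body, the insect counterpart of liver and adipose tissue, and build up after heat, wounding, infection and other severe stress. TotA, the best studied member, is induced through the JAK/STAT pathway together with Imd signalling, and TotM is known to respond to the stress kinase MEKK1.

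Gene counts summed to between 4379746 and 11685814 in the whole-body libraries, to 2813522 in the Solexa ovary library and to 109980 in the pyrosequenced ovary library. Levels are CPM, the counts of a gene per 1000000 gene counts of its library. A count of 3 stood for 27.3 CPM in the pyrosequenced ovary library, for 1.07 in the Solexa one and for 0.257 to 0.685 in whole bodies. All 10 follicle cell markers (chorion and vitelline membrane genes) held counts in both ovary libraries and all 11 accessory gland markers were at 0 there, while every whole body held counts on all of both lists. The iso1a whole body stood apart from the other 2: its 100 most abundant genes held 13.1% of gene counts, against 29.1% in Rev and 32.3% in IR6, its summed yolk protein genes lay at 655 CPM, against 62180 in Rev and 61974 in IR6, and it held 5820698 transposable element counts, against 278903 in Rev and 264154 in IR6.

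TotA and TotM were the main members in whole bodies. TotA gathered 1356 counts from iso1a, 2495 from Rev and 369 from IR6, or 310 (293 to 327), 214 (205 to 222) and 38.3 (34.5 to 42.4) CPM in that order. For TotM the counts were 888 for iso1a, 2169 for Rev and 275 for IR6, or 203 (190 to 217), 186 (178 to 194) and 28.5 (25.3 to 32.1) CPM. Both genes were high in iso1a and Rev and low in IR6. The IR6 intervals, which cover counting error alone, did not overlap those of the other lines. As the difference of Rev from IR6 was known when the family was selected, nothing is read from that separation. By rank among all genes with counts in a library, TotA stood at 634 of 12451 in iso1a, 776 of 12817 in Rev and 4370 of 12717 in IR6. TotM stood at 1216, 939 and 5214 in the same order of libraries. Both genes were thus within the top 9.8% of listed genes in iso1a and the top 7.3% in Rev, but no higher than the top 34.4% in IR6. In whole bodies, fewer cells of a type and less RNA per cell cannot be told apart.

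TotC, a neighbour of TotA, had counts of 432 for iso1a, 302 for Rev and 57 for IR6, or 98.6 (89.6 to 108), 25.8 (23.0 to 28.9) and 5.92 (4.48 to 7.67) CPM. The counts of TotX were 801 for iso1a, 70 for Rev and 27 for IR6, or 183 (170 to 196), 5.99 (4.67 to 7.57) and 2.80 (1.85 to 4.08) CPM. TotC thus was highest in iso1a, intermediate in Rev and lowest in IR6, and TotX was high in iso1a alone. The intervals of any pair of libraries were apart for both genes, but they cover counting error alone. In the BDGP6 annotation TotX lies within an intron of Grik, a glutamate receptor gene on the opposite strand, so in unstranded libraries reads from unspliced Grik RNA could not be told apart from TotX. Grik itself had fewer counts in iso1a (48) than in Rev (104) and IR6 (121), and its level was 10.96, 8.90 and 12.6 CPM in that order. These are counts per annotated transcript, and whether they hold unspliced RNA is not known. The part of Grik RNA in the TotX counts was not tested.

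TotB and TotZ were scarce. TotB counts numbered 24 for iso1a, 0 for Rev and 2 for IR6, or 5.48 CPM in iso1a (3.51 to 8.15) against a 3-count limit of 0.257 CPM in Rev. TotZ was met by a single count each in iso1a and Rev and by 0 in IR6. TotF was at 0 in every library, which allows up to 0.685 CPM in iso1a, 0.257 in Rev and 0.311 in IR6. TotE (CG33117, also called Victoria), the neighbour of TotF on 2L, is a relative outside the 7 genes; 12 counts fell on it in iso1a, 0 in Rev and 1 in IR6. TotB and TotE, both scarce, thus held most of their whole-body counts in iso1a. That library had the fewest gene counts of the whole bodies but the most transposable element counts.

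**Figure D1:**
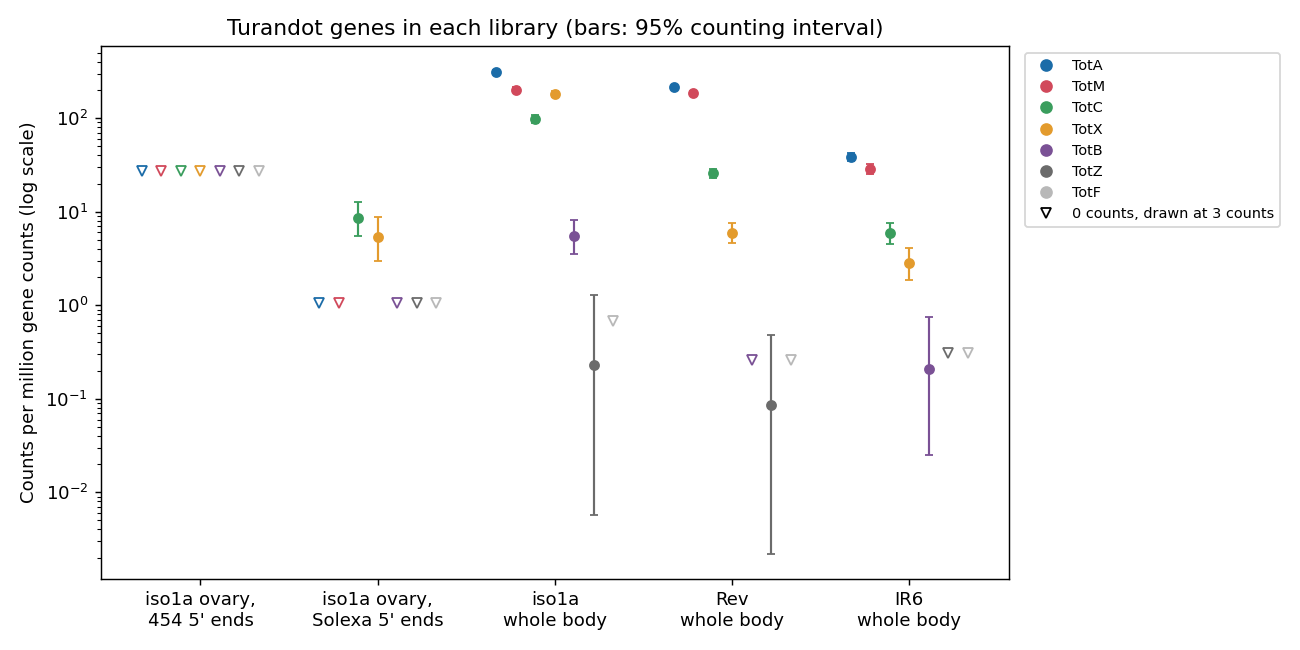
CPM (log scale) of each Turandot gene in the 5 libraries, with 95% counting intervals as bars and open triangles at 3 counts for genes with 0 counts. TotA and TotM lie between 186 and 310 CPM in iso1a and Rev whole bodies and at 38.3 and 28.5 in IR6, and TotX reaches 183 in iso1a alone.

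Levels differed widely between neighbours in the genome. In BDGP6, TotA, TotC, TotB and TotZ lie next to each other in this order on the plus strand of 3R, TotX follows beyond the gene Ktl on the minus strand, and TotM and the pair TotF and TotE lie apart on 2L. Within the 3R run, CPM per kilobase of transcript were 535 for TotA, 186 for TotC, 10.4 for TotB and 0.398 for TotZ in iso1a, so in this line each gene of the run was lower than the one before it. The run gave 369, 48.8, 0 and 0.149 in Rev and 66.2, 11.2, 0.395 and 0 in IR6. TotM, far from the run, was nearest to TotA in level, with 367 CPM per kilobase in iso1a, 336 in Rev and 51.7 in IR6. The 8 annotated genes are of like length, from 506 to 602 bp of transcript, and each gene with counts had 1 transcript in the deposited counts. How reads that match several members were placed is not known here, so the split between similar members is uncertain.

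The makeup of the family in iso1a differed from that in Rev and IR6 mainly by TotX. TotA held 38.7% of the family's counts in iso1a (37.1 to 40.4), 49.5% in Rev (48.1 to 50.9) and 50.5% in IR6 (46.9 to 54.2). TotM held 25.4% in iso1a, 43.1% in Rev and 37.7% in IR6. TotX held 22.9% in iso1a (21.5 to 24.3), 1.39% in Rev (1.08 to 1.75) and 3.70% in IR6 (2.45 to 5.34). TotC held 12.3%, 6.0% and 7.81% in the same order of libraries. TotA and TotM together thus made up most of the family's counts in each whole body, but TotX took a large share in iso1a alone.

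**Figure D2:**
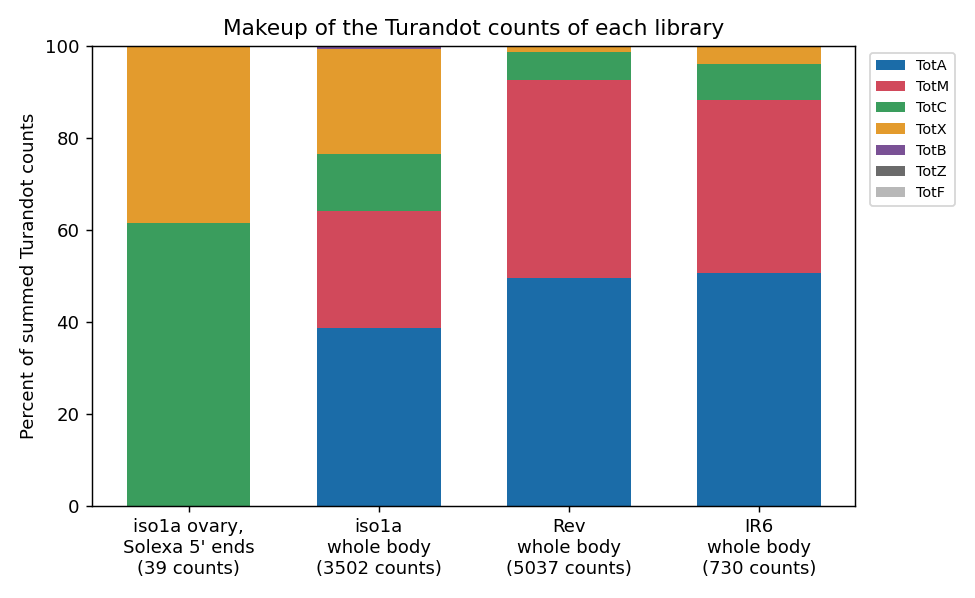
Percent of the summed Turandot counts held by each gene in the Solexa ovary library (39 counts) and the iso1a (3502), Rev (5037) and IR6 (730) whole bodies. TotA and TotM fill most of each whole-body bar, TotX takes 22.9% in iso1a, and the ovary bar holds TotC and TotX alone.

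Set against TotA in the same library, TotM varied least. Its level per transcript length was 0.687 of TotA in iso1a (0.630 to 0.748), 0.912 in Rev (0.860 to 0.966) and 0.782 in IR6 (0.666 to 0.916). TotC lay at 0.348 of TotA in iso1a (0.312 to 0.388), 0.132 in Rev (0.117 to 0.149) and 0.169 in IR6 (0.125 to 0.224). TotX lay at 0.568 in iso1a (0.520 to 0.620), 0.0270 in Rev (0.0210 to 0.0342) and 0.0704 in IR6 (0.0458 to 0.104). The order per length was therefore TotA, TotM, TotC, TotX in Rev and IR6, and TotA, TotM, TotX, TotC in iso1a. In all 3 whole bodies the counting interval of TotM against TotA excluded equality.

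**Figure D3:**
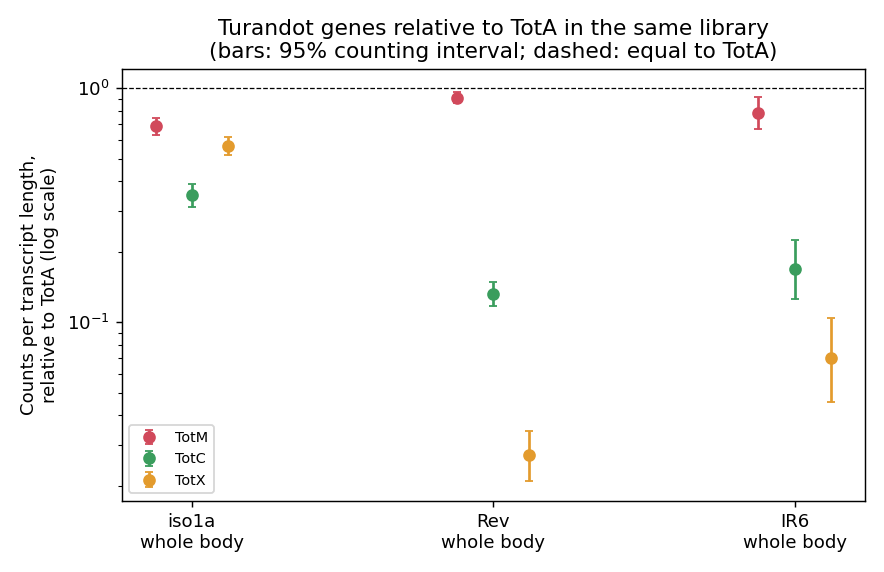
Counts per transcript length of TotM, TotC and TotX relative to TotA within each whole-body library (log scale), with 95% counting intervals as bars and equality as a dashed line. TotM stays between 0.687 and 0.912 of TotA, while TotX is at 0.568 in iso1a and at 0.0270 and 0.0704 in Rev and IR6.

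Rev was set against IR6, which differs from it in its labels only by the line. The summed family had 5037 counts in Rev and 730 in IR6, or 431 (419 to 443) and 75.8 (70.4 to 81.5) CPM, a log2 ratio of 2.51 (2.40 to 2.62). Ratios are log2 of counts with 0.5 added, scaled to gene totals, and a gene was called at 2-fold if it had at least 50 counts in both libraries together. TotM had the largest ratio of the members, 2.70 (2.52 to 2.89), followed by TotA with 2.48 (2.32 to 2.64), TotC with 2.12 (1.71 to 2.56) and TotX with 1.08 (0.44 to 1.79). These 4 of the 7 genes passed the minimum, and all 4 were at least 2-fold higher in Rev, as were 4.34% of the 10300 genes tested. As the family was picked with this difference known, and TotX passed the minimum only through its counts in Rev, nothing is read from that count.

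Among the 10300 genes, ordered from the highest ratio down, TotM ranked 31, TotA 41, TotC 58 and TotX 356. The median gene had a log2 ratio of 0.10, and the middle 95% of genes lay between −1.14 and 1.22, so TotX was within that range and the other 3 above it. Of the 3906 genes with at least 1000 counts in both libraries together, as TotA and TotM had, 2.12% were at least 2-fold higher in Rev. TotX fell short of 2-fold with TMM factors (0.99) and with median-ratio factors (0.97), and the other 3 stayed between 2.00 and 2.61. With TMM factors 3.40% of all genes were higher in Rev and 4.04% lower, against 4.34% and 3.47% by gene totals. Relative to the fold difference of TotA, that of TotM was 1.17 (0.985 to 1.38), that of TotC 0.784 (0.575 to 1.08) and that of TotX 0.384 (0.239 to 0.631). These values come from the contrast on which the family was selected and are a description only.

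**Figure D4:**
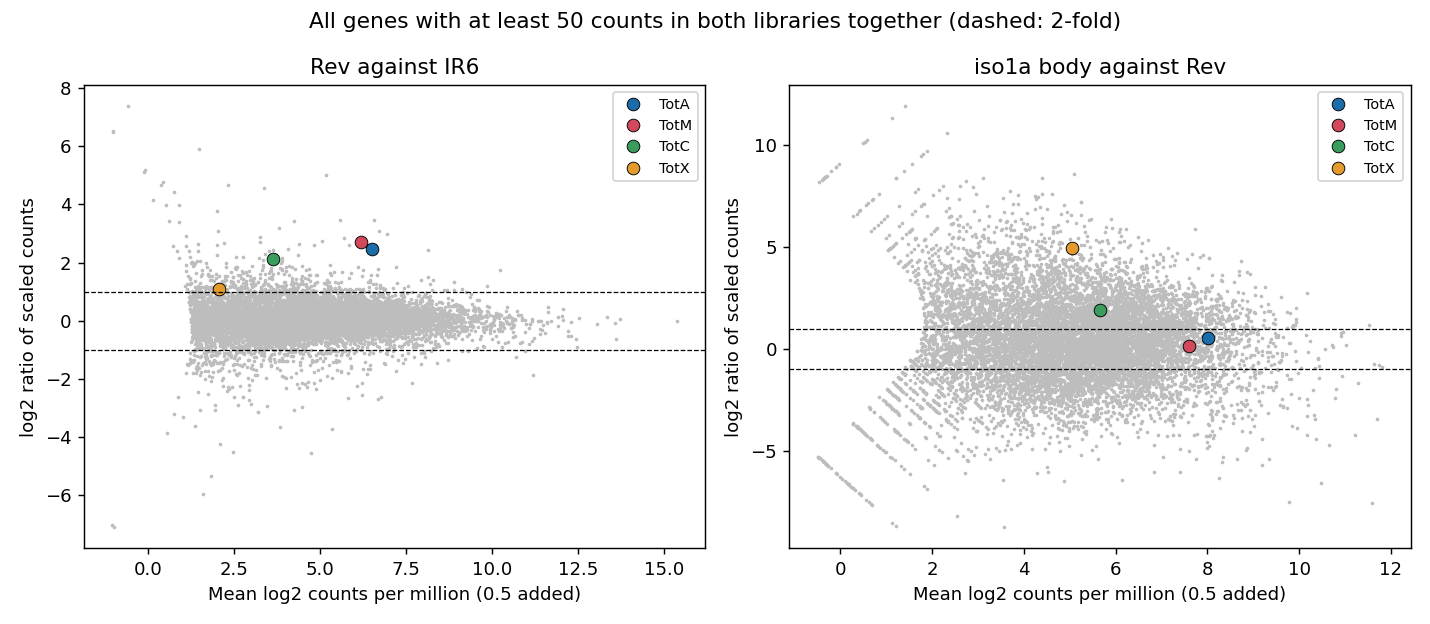
Log2 ratio of scaled counts against mean log2 CPM for all genes with at least 50 counts (grey), with TotA, TotM, TotC and TotX in colour and 2-fold as dashed lines. Rev against IR6 (left) places TotM, TotA and TotC at 2.12 to 2.70, and iso1a against Rev (right), scaled to gene totals, places TotA and TotM within 2-fold and TotX at 4.92.

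Few genes of the pathways known to induce Turandot genes reached 2-fold between Rev and IR6, which is near the share of all genes that did, 4.34% higher and 3.47% lower. Of 13 JAK/STAT genes 9 passed the minimum and 0 of them were called, with a median log2 ratio of 0.15 beside 0.10 for all genes. Stat92E, the transcription factor of the pathway, stood at 1694 counts for Rev and 1455 for IR6 (−0.06). The phosphatase gene Ptp61F, which restrains JAK signalling, had 4321 and 4552 (−0.35). Su(var)2-10, which encodes the PIAS protein, had 1190 and 842 (0.22), and the SOCS gene Socs44A had 982 and 631 (0.36). The ligand genes upd1, with 19 counts in Rev and 7 in IR6, upd3, with 12 and 2, and upd2, with 0 and 1, were under the minimum. The receptor gene dome, with 310 and 457 (−0.84), had the lowest ratio of the 9. These ligand and receptor genes were singled out after their values were seen.

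Of 18 Imd pathway genes 18 passed the minimum and 0 were called in Rev against IR6 (median 0.13). Diap2, a ubiquitin ligase of the pathway, had 1019 counts in Rev and 647 in IR6 (0.38), and casp, a negative regulator, had 700 and 555 (0.06). The kinase gene Tak1 had 774 and 647 (−0.02), and PGRP-SC2, which encodes a peptidoglycan-cleaving protein, had 785 and 762 (−0.24). Of 19 Toll pathway genes 19 passed and 0 were called (median 0.30). The largest counts were those of cact, the inhibitor of the Toll transcription factors, with 4274 in Rev and 2334 in IR6 (0.59). Tl, the receptor gene, had 804 and 540 (0.30), Pli had 1190 and 1201 (−0.29), and the serpin gene nec had 1843 and 1150 (0.40).

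Of 17 genes of the MEKK1, p38 and JNK stress kinase modules, 1 was called higher in Rev and 0 lower (median 0.23). This was p38c, a p38 kinase gene, with 124 counts in Rev and 46 in IR6 (1.14), which passed the minimum only through Rev; 1 of 17 is near the 4.34% of all genes. The AP-1 gene kay had 1018 and 817 (0.04), slpr, an upstream kinase of the JNK module, 811 and 557 (0.26), the JNK-activating kinase gene Mkk4 1603 and 1245 (0.09), and lic, whose product activates p38, 1567 and 1085 (0.25). Hsp22 and CG4456 (Hsp67Bb) overlap and held the same counts in each of the 5 libraries, so they are counted once here. The heat shock list then had 11 genes past the minimum and 0 called, with a median of 0.09 that was 0.01 with TMM factors and turned to −0.02 with median-ratio factors. The small heat shock genes Hsp26 (19048 counts in Rev and 15498 in IR6, 0.02) and Hsp27 (15848 and 12241, 0.09), the chaperone gene Hsp83 (18831 and 11305, 0.46) and Hsf, the heat shock transcription factor gene (2143 and 1569, 0.17), were all within 2-fold.

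Of 28 listed other genes induced by infection and stress, 14 passed the minimum. Of these, 1 lay higher in Rev and 2 lay lower, beside 4.34% and 3.47% of all genes. Both lower genes had under 50 counts in Rev and reached the minimum only with their IR6 counts. That favours a lower call without forcing it. Of the 9 genes with at least 50 counts in each library, 1 was higher and 0 lower, though the shares of all genes use 50 counts in both libraries together. The antibacterial peptide gene AttC was higher, with 741 counts in Rev and 299 in IR6 (1.03), though it fell short of 2-fold with TMM factors. The genes lower in Rev were AttD, a relative of AttC, with 31 and 160 counts (−2.63), and BomS1, a Toll-induced peptide gene, with 20 and 55 (−1.72). BomS3, of the same family, had 3805 and 2905 counts (0.11), BomS2 had 156 and 75 (0.77), and the virus-induced gene vir-1 had 2237 and 1832 (0.01). Of the genes of these 6 lists past the minimum, which leave out the tissue markers, p38c had the highest ratio, 1.14. TotC, TotA and TotM lay above it, but the family was selected on this contrast, so nothing is read from that order.

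Some fat body markers lay higher in Rev. All 13 markers held counts in both lines, 5 were at least 2-fold higher in Rev, 0 were lower, and the median was 0.57, against 4.34% and 3.47% of all genes and a median of 0.10. With TMM factors 4 were higher, against 3.40% of all genes. All 13 had at least 50 counts in each library. Their sum was 4485 CPM in Rev and 4022 in IR6. The abundant markers were within 2-fold: apolpp, which encodes lipophorin, drew 14166 counts from Rev and 13089 from IR6 (−0.16), and Desat1, a desaturase gene, had 19298 and 15364 (0.05). The storage protein gene Lsp1gamma had 814 and 110 (2.60), a ratio in the range of TotA and TotM, and the storage protein receptor gene Fbp1 had 798 and 260 (1.34). Both were chosen after their values were seen. The part of fat body content in the Turandot difference was not tested.

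Markers of other tissues differed in either direction. By gene totals 4.34% of all genes were higher in Rev and 3.47% lower, or 3.40% and 4.04% with TMM factors. Among haemocyte markers 0 of 7 measured genes were called (median −0.01; sums of 465 CPM in Rev and 448 in IR6). Among accessory gland markers 3 of 9 were lower and 0 higher (703 and 1062 CPM). Testis markers had 0 called of 7 (734 and 834 CPM), or 1 lower with TMM factors. Yolk protein genes had 0 called of 3, Malpighian tubule markers 0 of 4, and follicle cell markers 1 higher of 10. Gut markers had 2 higher and 1 lower of 7, or 1 and 1 with TMM factors. Of these, Jon74E had 1861 counts in Rev and 140 in IR6 (3.45), and the lower gene Jon25Biii had 4582 and 7790 (−1.04). Both were named after their values were seen.

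**Figure D5:**
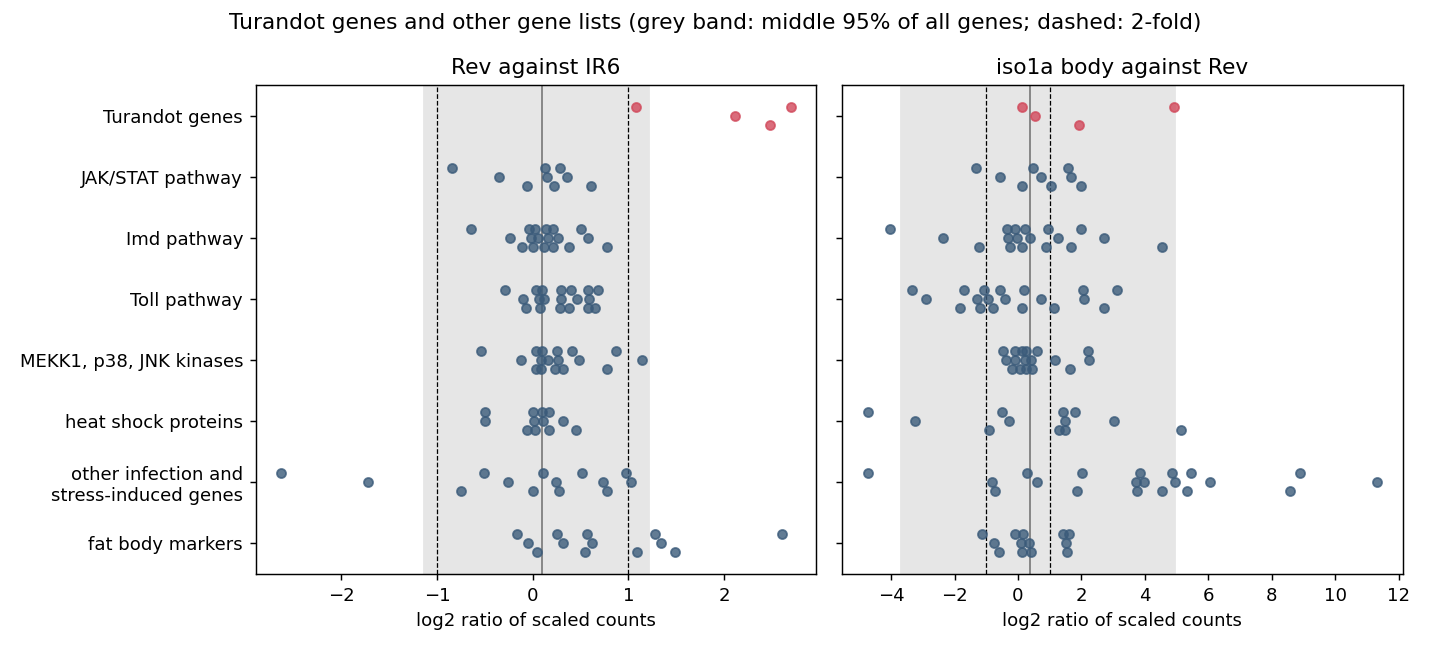
Log2 ratio of each gene with at least 50 counts in the Turandot family (top row), the 6 gene lists and the fat body markers, for Rev against IR6 (left) and iso1a against Rev (right). The grey line is the median and the grey band the middle 95% of all genes, which spans −1.14 to 1.22 on the left and −3.68 to 4.96 on the right; TotM, TotA and TotC lie beyond it on the left and no Turandot gene on the right.

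The iso1a whole body differed from Rev in the line and in the label for normalization together, so these cannot be told apart. The summed family had 3502 counts in iso1a and 5037 in Rev, or 799.6 (773 to 827) and 431 CPM, a log2 ratio of 0.89 (0.83 to 0.95). With transposable element counts added to the library totals the direction of the sum turned, to 343 per 1000000 counts in iso1a and 421 in Rev, a log2 ratio of −0.29. TotX (4.92, 4.58 to 5.31) and TotC (1.93, 1.72 to 2.15) were at least 2-fold higher in iso1a. TotA (0.54, 0.44 to 0.63) and TotM (0.13, 0.01 to 0.24) were not called. Calls are common here: 37.6% of 10542 genes were at least 2-fold higher in iso1a and 23.2% lower, or 28.4% and 31.5% with TMM factors. Among 3688 genes with at least 1000 counts in both libraries together 32.3% were higher. The median gene had a ratio of 0.39, and TMM factors moved every ratio by −0.49, which put TotA at 0.05 and turned TotM to −0.36, while TotX stayed at 4.43 and TotC at 1.44. With gene plus transposable element totals TotX was at 3.74, TotC no longer reached 2-fold (0.75), TotA turned to −0.65 and TotM to −1.06, past 2-fold lower; by that total 17.8% of all genes were higher, 45.8% lower and the median gene was at −0.80. TotX ranked 276 of the 10542 genes from the highest, TotC 2257, TotA 4940 and TotM 5844.

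The fold difference of TotX in iso1a against Rev was 21.0 times that of TotA (16.3 to 27.5), and that of TotC was 2.63 times (2.23 to 3.10). That of TotM was 0.753 of it (0.679 to 0.836). These ratios between members do not change when all counts of a library are scaled by the same factor. An effect that differs between scarce and abundant genes could change them. Whether the step behind the normalization label had such an effect was not tested. TotB, with 24 counts against 0, was under the minimum. With 3 counts put in place of the 0 it was 21.3-fold higher in iso1a by gene totals. The counting interval of its log2 ratio, with the 0 kept, began at 4.01.

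Set against IR6, the library that Rev was set against too, the iso1a sum of 799.6 CPM stood beside 75.8, a log2 ratio of 3.40 (3.28 to 3.52). TotX had 6.0 (5.48 to 6.64), TotC 4.05 (3.66 to 4.48), TotA 3.01 (2.85 to 3.18) and TotM 2.83 (2.63 to 3.03). All 4 were at least 2-fold higher in iso1a, where 40.3% of 10390 genes were and 21.5% were lower; with TMM factors these shares were 29.1% and 31.2%. Of 3174 genes with at least 1000 counts in both libraries together 36.6% were higher. TMM factors moved ratios by −0.58, and the 4 members stayed between 2.25 and 5.42. With gene plus transposable element totals they lay between 1.65 and 4.82. TotX passed the minimum only through iso1a. It ranked 85 of the 10390 genes, TotC 448, TotA 1074 and TotM 1249.

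JAK/STAT genes differed both ways in iso1a against Rev, with 4 of 9 higher and 1 lower (median 0.74), or 3 and 2 with TMM factors (median 0.25). Over all genes 37.6% were higher and 23.2% lower, or 28.4% and 31.5% with TMM factors. Stat92E had 1876 counts in iso1a and 1694 in Rev (1.56), and hop, which encodes the JAK kinase, had 432 and 291 (1.99). The feedback inhibitor gene Socs36E had 261 and 218 (1.68), and the adaptor gene Stam had 545 and 711 (1.03). Ptp61F was the gene lower in iso1a, with 650 and 4321 (−1.32). Against IR6 the same list had 4 higher and 1 lower of 9 (median 0.70). The Imd list had 5 higher and 3 lower of 18 against Rev, with a median of 0.18 that turned to −0.31 with TMM factors. The Toll list had 5 higher and 7 lower of 19 (median −0.58), or 4 and 10 with TMM factors (median −1.07); 3 of the 7 had under 50 counts in iso1a. Tl (2651 counts in iso1a and 804 in Rev, 3.14) was among the higher Toll genes and nec (68 and 1843, −3.33) among the lower ones. The stress kinase list had 4 higher and 0 lower of 17, with a median of 0.24 that turned to −0.25 with TMM factors.

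Of the other infection and stress genes 20 passed the minimum in iso1a against Rev, 15 of them higher and 1 lower, but 11 of the 15 had under 50 counts in Rev, such as CecA2 with 89 counts in iso1a and 0 in Rev. Those reached the minimum only with their iso1a counts, which favours a higher call, so nothing is read from the 15. Of the 8 genes with at least 50 counts in each library 4 were higher and 0 lower. The shares over all genes, 37.6% and 23.2%, use the looser minimum of 50 counts in both libraries together. BomS1 had 2904 counts in iso1a and 20 in Rev (8.56), BomS2 had 2594 and 156 (5.47), BomS3 had 802 and 3805 (−0.83), and vir-1 had 1016 and 2237 (0.28). AttC, the lower one, had 10 and 741 (−4.73) and passed only through Rev. Of 11 heat shock genes, with Hsp22 and CG4456 counted once, 6 were higher and 2 lower (median 1.29), or 3 and 3 with TMM factors (median 0.80). Hsp27 (221 counts in iso1a and 15848 in Rev, −4.75) and Hsp26 (747 and 19048, −3.26) were lower by either scaling.

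Tissue markers also differed in iso1a against Rev. Calls were common over all genes, with 37.6% higher and 23.2% lower, or 28.4% and 31.5% with TMM factors. Of 13 fat body markers 4 were higher and 1 lower, or 3 and 3 with TMM factors, with a sum of 4088 CPM in iso1a and 4485 in Rev and a median of 0.16 that turned to −0.33 with TMM factors. Haemocyte markers were higher in 6 of 9 (1064 and 465 CPM), or 4 with TMM factors, and 3 of the 6 had under 50 counts in Rev. Accessory gland markers were higher in 7 of 11 (2670 and 703 CPM), or 6 with TMM factors, and 2 of the 7 had under 50 counts in Rev. Testis markers had 4 higher and 3 lower of 7, and Malpighian tubule markers 2 higher and 1 lower of 4. Follicle cell markers were lower in 8 of 10 (570.1 and 19793 CPM), gut markers in 7 of 7 (218 and 2135 CPM), 3 of them with under 50 counts in iso1a, and yolk protein genes in 3 of 3. The part of these differences in the ratios of TotX and TotC was not tested.

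In ovaries of iso1a the family was scarce, and its makeup was unlike that of whole bodies. The Solexa library of 5′ ends held 39 Turandot counts, 13.9 CPM (9.86 to 18.9). Of these 24 fell on TotC and 15 on TotX, or 8.53 (5.47 to 12.7) and 5.33 (2.98 to 8.79) CPM. TotC made up 61.5% of the family there (44.6 to 76.6) and TotX 38.5% (23.4 to 55.4). TotA and TotM had 0 of the 39 counts, which allows a share of up to 7.69% or a level of up to 1.07 CPM for each, while in the iso1a whole body they held 38.7% and 25.4%. This library is strand-specific, but whether the counting used the strand is not known. Grik was at 0 in this library. Of the fat body markers, 9 of 13 were at 0 there, among them apolpp, Fbp1 and the Lsp genes. TotC ranked 4281 and TotX 4794 of 5804 genes with counts. In the pyrosequenced library all 7 genes were at 0, which allows up to 27.3 CPM for each, above both Solexa levels. Ovary and whole body differed in assay as well as in tissue.

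The pattern of the summed family over the 3 whole bodies was compared with that of 9935 other genes, by the distance between their pairs of log2 ratios, Rev over IR6 and iso1a over IR6. The family stood at 2.51 and 3.40. The nearest gene was CG4716, at 2.60 and 3.23 (distance 0.20), on 954 iso1a, 1652 Rev and 224 IR6 counts. Then came the glutathione S-transferase gene GstE1 at 2.74 and 3.17 (0.33), the storage protein gene Lsp1gamma at 2.60 and 2.97 (0.44), CG30281 at 2.20 and 3.74 (0.46) and the troponin C gene TpnC47D at 2.43 and 2.86 (0.54). A likeness over 3 libraries, 1 per line, describes these libraries only.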

How the data were processed

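The deposited gene values are whole-number counts of reads per annotated transcript, used as the authors deposited them. The submitters' processing notes name the read aligner Bowtie, without saying how it was run. Its version, the genome build, the counter and the handling of multi-mapping reads are not given in the sources used here. Reads matching similar family members may therefore be placed on either. TE files, with counts per TE copy, gave a total per library only.

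Each gene took the highest of its transcript counts, and a transcript not listed counted as 0. Rows with the placeholder identifier CG00000, at 0 to 681 counts per library, were left out. Symbols came from RefSeq (12473 identifiers by locus tag, 548 by a synonym, 244 unmatched). Transcript lengths and neighbours came from the BDGP6 annotation, whose positions were not used, as the build of the files was not given. Protein and promoter sequence features, planned earlier, were not analysed here. Library totals ran from 109980 to 11685814.

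Ratios, minimum counts and intervals are as given with the results, and the 3-count limit covers counting error only. For the 3 whole bodies, edgeR 4.0.16 supplied TMM factors and DESeq2 1.42.0 supplied median-ratio factors, both in R 4.3.3. Intervals and counts were computed in Python 3.11.15 using scipy 1.17.1, pandas 2.3.3 and numpy 2.4.6. The functions were tested on simulated counts first. No p-value was computed.

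The members, 6 gene lists and 8 tissue marker lists were chosen with earlier results of these data known. Named were the 7 members, up to 4 genes of each list with the most counts in whole bodies, JAK/STAT genes past 2-fold, and the 5 genes nearest in pattern. AttC, AttD, p38c, CecA2, Hsp22, CG4456, upd1, upd2, upd3, dome, Lsp1gamma, Fbp1, apolpp, Desat1, Jon74E and Jon25Biii were singled out with their values in view. So were the alternatives that leave out TotX, count CG31609 or scale ratios to gene plus TE totals. Other alternatives were scalings, count minimums, the added constant and sums over transcripts.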

Additional observations from a re-analysis of the deposited data

How the results depend on the processing

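The ratio of the summed family in Rev over IR6 was 2.51 and stayed above 2-fold in every alternative run, down to 2.39 with median-ratio factors. The sum in iso1a over Rev, 0.89, was 0.40 with TMM factors, 0.47 with median-ratio factors, 0.60 without the 100 most abundant genes of each library, 0.81 with transcripts summed and 0.54 without TotX. In iso1a over IR6 it was 3.40, and 2.82, 2.86 and 3.04 under the first 3 of these and 3.08 without TotX. The number of members at least 2-fold higher in iso1a over Rev, 2, was 4 with no minimum count, as TotB and TotZ then entered (TotZ on 1 count in each library), and 1 without TotX. With transcripts summed the family's level was 382 CPM in iso1a, 218 CPM in Rev and 38.9 CPM in IR6, since each member has 1 transcript while the totals grew. With TE counts in the denominator the levels were 343 in iso1a, 421 in Rev and 73.8 in IR6, so the order of iso1a and Rev turned round. Ratios by that total, added after seeing the data, were 2.51 for the sum in Rev over IR6, −0.29 in iso1a over Rev, where 1 member was then higher and 1 lower, and 2.22 in iso1a over IR6. Without the member with the most counts the values were 5.33 CPM in the Solexa ovary library, 490.0 CPM for iso1a, 218 for Rev and 37.5 for IR6. No member or sum called at 2-fold by gene totals changed sign in these alternatives, but uncalled TotA, TotM and the sum did in iso1a over Rev. Counting CG31609 in place of CG5609 gave 820.1 CPM in iso1a. No paired analysis was possible because each group held 1 library. The depth of the pyrosequenced library (27.3 CPM for 3 counts) cannot show the ovary levels seen with Solexa.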
